A study of Arabidopsis thaliana with 27 samples.

Results

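Plastid DNA of Arabidopsis encodes part of the machinery that expresses it. The transcripts described here come from 31 such genes: 4 subunits of the plastid-encoded RNA polymerase (rpoA, rpoB, rpoC1, rpoC2), 10 proteins of the small and 9 of the large ribosomal subunit, and 8 other genes (matK, clpP, ycf1, ycf2, ycf3, ycf4, ccsA and cemA). A gene was taken where the annotation of the array named a plastid gene with one of these symbols, spelled in lower case as plastid genes are, for a probe set, and where several probe sets did so the brightest was used. All 31 were measured, out of 76 plastid genes and 13358 genes of any genome with a probe set named for 1 symbol. For 25 of them the probe set named 1 gene ID. The other 6 (rpl2, rpl23, rps7, rps12, ycf1 and ycf2) lie wholly or partly in the inverted repeat of the plastid genome, and their probe sets named both copies.

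Wild-type plants of the ecotype Col-0 were grown on agar plates at 22 °C with 16 h of light and 8 h of darkness. Heat stress at 38 °C lasted 24 h and began at an age of 18 days, and the plants were then returned to 22 °C for a day. RNA of aerial parts, labelled leaf in the sample records, was hybridised to 27 Affymetrix ATH1 arrays of 1 colour, which the labels call biological replicates. Heat08hr (18 days), Heat24hr (19 days), Recovery08hr (19 days) and Recovery24hr (20 days) had 3 arrays each. Unheated plants gave 6 arrays of Control08hr, from plants of 18 and 19 days, and 9 arrays of Control24hr, from plants of 18, 19 and 20 days. Plants of the 08hr groups were harvested when the lights had been on for 11 h, and those of the 24hr groups at 3 h, so each treated group was compared with the control of its own clock time.

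In plastids, transcription is shared by 2 kinds of RNA polymerase. The plastid-encoded enzyme is of the bacterial type, is built from the rpo subunits together with nuclear-encoded sigma factors, and transcribes most photosynthesis genes. The nuclear-encoded enzymes RPOTp and RPOTmp are related to phage polymerases and transcribe several housekeeping genes, the rpoB operon among them. Many plastid genes are co-transcribed, and the long transcripts are then cut, spliced and edited. The translation apparatus is a bacterial-type ribosome whose proteins are encoded partly in the plastid and partly in the nucleus.

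The deposited values are MAS5 signals on a linear scale, with a 2% trimmed mean of 494.5 to 496.8 on each array. Median signals were 162.0 to 175.9 on control arrays, 128.1 to 133.6 at Heat08hr, 119.8 to 130.6 at Heat24hr, 160.1 to 175.8 at Recovery08hr and 170.5 to 175.3 at Recovery24hr. HSFA2, a heat stress transcription factor, had signals of 5.19 to 47.1 (median 10.9) in Control24hr and 4532, 5000.2 and 5257 in Heat24hr. Rubisco activase (RCA), a leaf marker, had 25299.8 to 30242 (median 26909.5) in Control08hr, and EXPA7, a root hair marker, had 4.3 to 76.9 (median 18.8). One array, replicate 3 of Recovery08hr, stood apart from the other Recovery08hr arrays, with an SD of log2 differences of 0.623 and 0.716 against 0.359 between the remaining pair. Standard Affymetrix labelling primes on poly(A), and plastid transcripts mostly lack long poly(A) tails, so the amount of a transcript and its tailed share cannot be told apart in these signals. Fewer cells of a type and less RNA per cell cannot be told apart either. Signals of different probe sets are not comparable as levels, and only changes of the same probe set are compared.

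Most of the 31 genes had lower signals under heat and during recovery than in control plants. The test was limma's moderated test on log2 signals with Benjamini-Hochberg adjustment over all 22746 probe sets, and a gene was called lower or higher at an adjusted p under 0.05. A change of at least 2-fold was required for it to be said to have fallen or risen 2-fold. At Heat08hr 25 of the 31 genes were lower, where 29.1% of all probe sets were called lower, and 14 fell at least 2-fold, against 16.3%. At Heat24hr 26 were lower (all probe sets, 33.4%) and 13 fell at least 2-fold (22.4%). Recovery08hr had the most, with 29 lower (26.2%) and 20 fallen at least 2-fold (17.1%). By Recovery24hr 20 were lower (18.4%) and 5 had fallen at least 2-fold (7.36%), which were rpl23, rps12, rps14, ycf4 and cemA. In these comparisons limma called 0 of the 31 higher, also at an unadjusted p under 0.05 and with no fold limit, whereas of all probe sets 19.5%, 24.4%, 26.2% and 18.1% were called higher.

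The median log2 fold change over the 31 genes was -0.83 at Heat08hr, -0.95 at Heat24hr, -1.16 at Recovery08hr and -0.45 at Recovery24hr. Over all probe sets it was -0.13, -0.22, -0.09 and -0.07 in the same order. The treated arrays all lay below all control arrays for 22 genes at Heat08hr (27.2% of all probe sets), 24 at Heat24hr (28%), 28 at Recovery08hr (23.5%) and 19 at Recovery24hr (13.5%). Comparisons at one clock time share their control arrays. In all 4 comparisons 16 genes were lower, 9 were lower in 3, 4 in 2, rps16 in 1 and rpoB in 0. Of all probe sets 5.55% were lower in 4 of them, 11.5% in 3, 15.8% in 2, 18.8% in 1 and 48.4% in 0. The log2 fold change was lowest at Recovery08hr for 17 of the genes, at Heat08hr for 10, at Heat24hr for clpP, rpl22 and rps19, and at Recovery24hr for rpl32. Without replicate 3 of Recovery08hr, 24 genes fell at least 2-fold there.

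**Figure D1:**
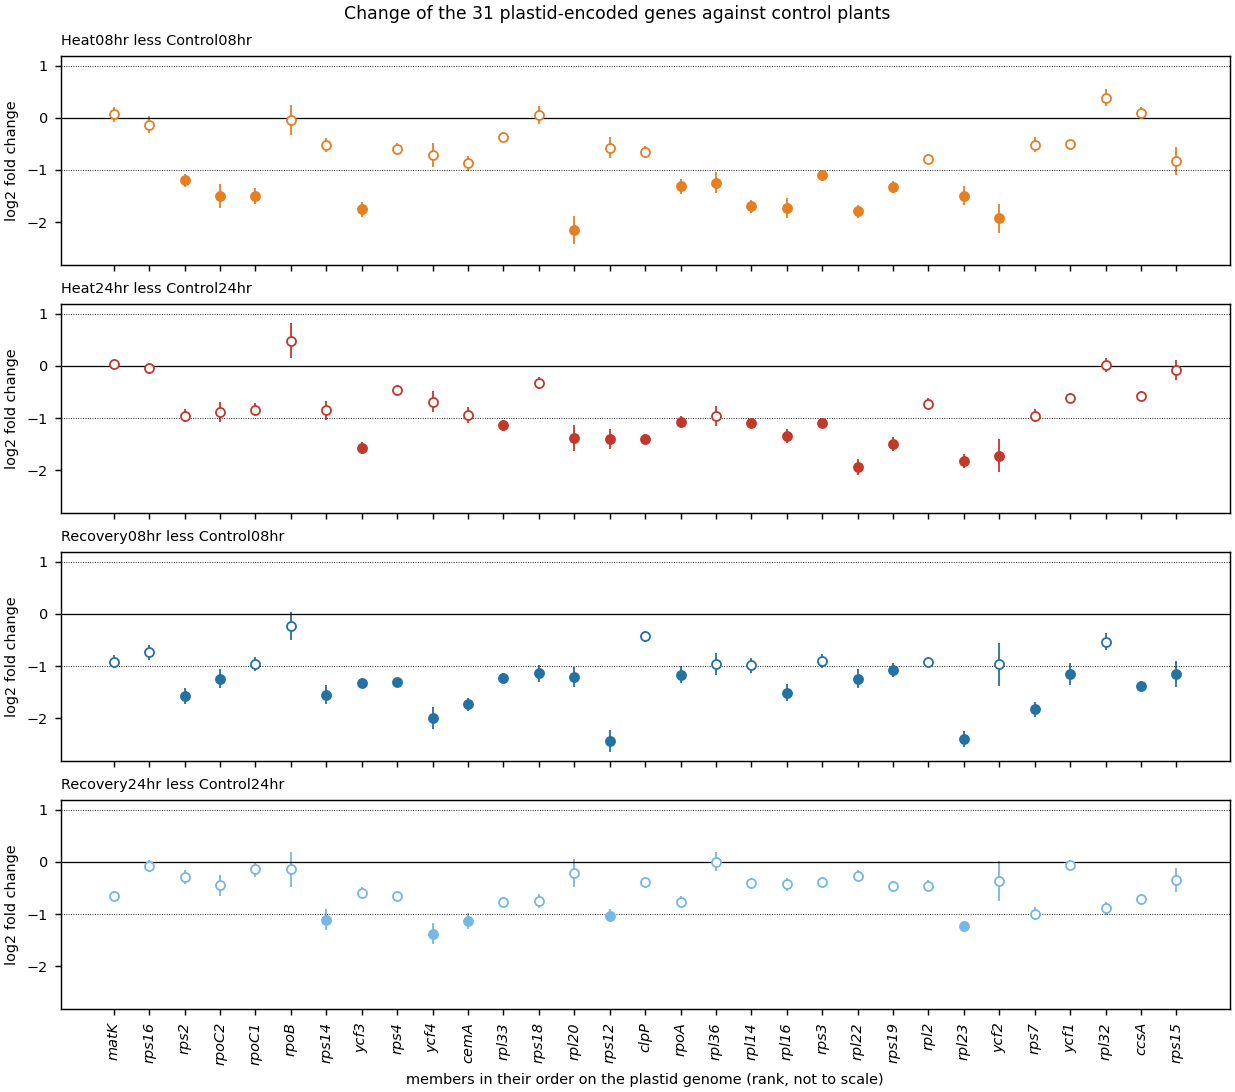
Log2 fold change of each of the 31 genes against the control of the same clock time, with genes in their order on the plastid genome by rank. Bars are ±1 SE, filled points are at an adjusted p under 0.05 with a change of at least 2-fold, and dotted lines mark 2-fold. No gene reached the upper dotted line, and the filled points number 14, 13, 20 and 5 from top to bottom.

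Part of these counts depended on how the arrays were scaled. Centring each array on its median raised the median over all probe sets to 0.25 at Heat08hr (from -0.13) and to 0.19 at Heat24hr (from -0.22). The median over the 31 genes stayed below that of all probe sets, at -0.46 and -0.54, with 16 and 19 genes lower (19.5% and 24% of all probe sets). Of these 9 fell at least 2-fold at Heat08hr, where 10.6% of all probe sets did, and 5 at Heat24hr, near the 15.9% of all probe sets. Under the same centring 3 genes were higher at Heat08hr (ccsA, matK and rpl32) and 4 at Heat24hr (matK, rpl32, rpoB and rps16), each by less than 2-fold. Of all probe sets 30.3% and 33.8% were called higher in these centred comparisons. With quantile normalization 14, 11, 13 and 2 genes fell at least 2-fold at Heat08hr, Heat24hr, Recovery08hr and Recovery24hr, where 12.9%, 17.7%, 15.6% and 6.25% of all probe sets did, so that the last count is near that of all probe sets. At Recovery24hr this normalization left 12 genes lower at any fold (18.2% of all probe sets) and turned rpl2 from -0.45 to 0.28, where it was called higher.

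Of the RNA polymerase subunits, rpoA, rpoC1 and rpoC2 were lower under heat and at Recovery08hr. As deposited, rpoB was called in no comparison with the control. With quantile normalization or median centring rpoB was called higher at Heat24hr. The alpha subunit gene rpoA had signals of 14172 to 21144 (median 17471) on the Control08hr arrays, 6253, 6845 and 8129 at Heat08hr and 6472, 8523 and 8594 at Recovery08hr. At the other clock time they were 16651 to 20795 (median 18875) in Control24hr, 7191, 8663 and 10456 at Heat24hr and 9765, 10395 and 12486 at Recovery24hr. Treated arrays lay below all control arrays in the 4 groups. Its log2 fold change was -1.31 ± 0.14 (SE, adjusted p = 8.69e-05) at Heat08hr and -1.08 ± 0.12 (SE, adjusted p = 5.89e-06) at Heat24hr. At Recovery08hr rpoA was 2.24-fold lower, and at Recovery24hr 1.69-fold lower (limma, adjusted p = 0.000186).

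The beta' subunit of bacteria is encoded in plastids by a pair of genes, rpoC1 and rpoC2. Signals of rpoC1 were 4323 to 6216 (median 5580.4) in Control08hr, 1648, 1842 and 2378 at Heat08hr and 2627, 2779 and 2972 at Recovery08hr, and these groups did not overlap with the control. In the 24hr groups they were 4280.3 to 6071 (median 5415) in the control, 2601, 3066 and 3075 under heat and 3837, 5021 and 5466 during recovery. The Recovery24hr arrays of rpoC1 thus overlapped with the control, and its log2 fold change there was -0.14 ± 0.14 (SE, adjusted p = 0.465). The decrease of rpoC1 was larger at Heat08hr (-1.49 ± 0.16) than at Heat24hr (-0.84 ± 0.12), with a difference between them of 0.65 ± 0.19 (SE, adjusted p = 0.0127) by limma's interaction test.

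A like course was measured for rpoC2, with 1302 to 2179 (median 1673) in Control08hr, 442, 568.4 and 855 at Heat08hr and 573, 786 and 816 at Recovery08hr. Its 24hr signals were 1066 to 2001 (median 1603) in the control, 744, 863 and 969 at Heat24hr and 901, 1165 and 1469 at Recovery24hr. The log2 fold changes of rpoC2 were -1.50 ± 0.22 (SE, adjusted p = 0.000558) at Heat08hr and -1.24 ± 0.18 (SE, adjusted p = 0.000492) at Recovery08hr, and at Recovery24hr the arrays overlapped with the control.

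The gene for the beta subunit, rpoB, was the dimmest of the 31. Each rpoB signal lay below the median signal of its array, and no detection calls were used. It had signals of 48.3 to 120.1 (median 56.6) in Control08hr, 50.1, 65.4 and 71.1 at Heat08hr and 51.6, 54.1 and 57.2 at Recovery08hr. They were 33.1 to 109 (median 61) in Control24hr, 80.5, 81.9 and 97 at Heat24hr and 46.8, 49 and 75.5 at Recovery24hr. All treated groups overlapped with their control. The log2 fold change of rpoB at Heat24hr was 0.48 ± 0.33 (SE, adjusted p = 0.237). Its interval of ±2 SE ran from -0.17 to 1.14, and with quantile normalization it was 1.02 and called higher. The rpoB gene lies directly beside rpoC1 and is transcribed together with it.

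**Figure D2:**
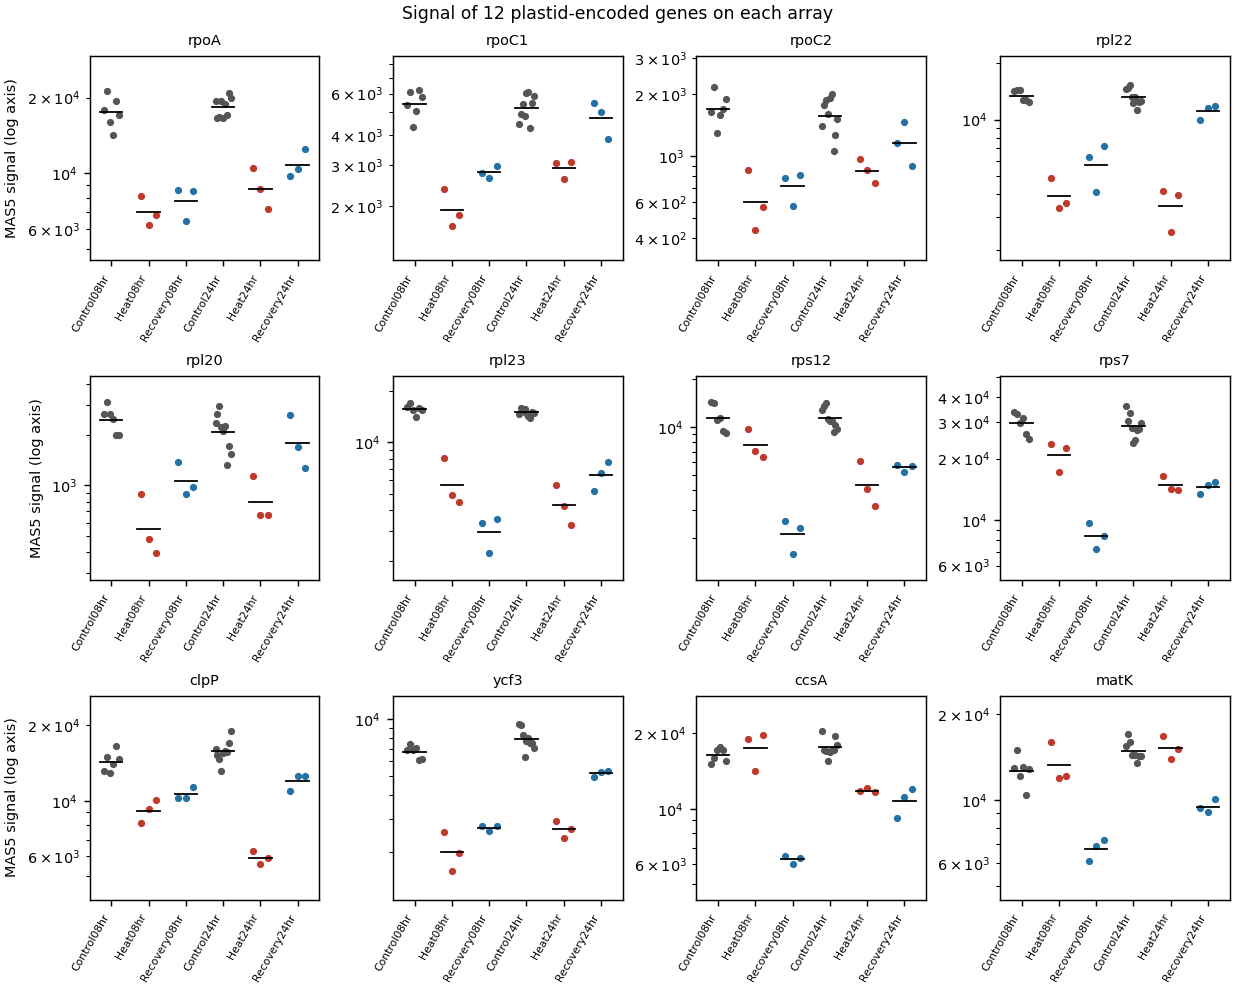
MAS5 signal on a log axis of 12 of the genes on every array, with grey points for control, red for heat and blue for recovery arrays, and a line at the geometric mean of each group. The heat arrays of rpoA, rpoC1, rpoC2, rpl20, rpl22, rpl23 and ycf3 lay below all control arrays of their clock time, while those of matK overlapped with them.

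Among the 9 genes for proteins of the large ribosomal subunit, 8 were lower at Heat08hr (29.1% of all probe sets) and 8 at Heat24hr (33.4%). At each of these times 6 fell at least 2-fold (16.3% and 22.4%). All 9 were lower at Recovery08hr (26.2%), and 6 at Recovery24hr (18.4%). The median log2 fold change of this group was -1.49 at Heat08hr, -1.14 at Heat24hr, -1.21 at Recovery08hr and -0.43 at Recovery24hr. At Heat08hr the largest decrease of any of the 31 genes was that of rpl20, whose product is essential in tobacco.

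For rpl20 the signals were 1993 to 3111 (median 2568) in Control08hr, 394, 476 and 892 at Heat08hr and 888, 982 and 1381 at Recovery08hr. In the 24hr groups rpl20 had 1319 to 2968 (median 2234) in the control, 661, 668 and 1131 at Heat24hr and 1269, 1689 and 2625 at Recovery24hr. Heat arrays at both times lay below all controls, and the Recovery24hr arrays overlapped with them. For Heat08hr this was a log2 fold change of -2.15 ± 0.26 (SE, adjusted p = 0.000166), a 4.45-fold decrease, and it was -1.38 ± 0.25 (SE, adjusted p = 0.000446) at Heat24hr.

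The gene rpl22 had 12386 to 14361 (median 13555) in Control08hr, 3369, 3555 and 4852 at Heat08hr and 4063, 6284 and 7242 at Recovery08hr. Signals of 11257 to 15386 (median 13229.6) were found in Control24hr, against 2508, 3956 and 4126 at Heat24hr and 9936, 11565 and 11797 at Recovery24hr. Heat arrays of rpl22 lay far below the controls at both times, and by Recovery24hr the arrays overlapped with the control again. Its log2 fold change was -1.80 ± 0.13 (SE, adjusted p = 7.14e-06) at Heat08hr and -1.94 ± 0.15 (SE, adjusted p = 2.56e-07) at Heat24hr, the largest decrease of the 31 genes at that time.

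In contrast, rpl23 fell at least 2-fold in all 4 comparisons, which no other of the 31 genes did. It had 14175 to 17169.9 (median 15730.4) in Control08hr, 4453, 4868 and 8109 at Heat08hr and 2229, 3337 and 3527 at Recovery08hr. At the other clock time it had 14013 to 16064 (median 14965) in Control24hr, 3271, 4226 and 5627 at Heat24hr and 5166, 6633 and 7711 at Recovery24hr. Every treated array lay below every control array. For rpl23 the log2 fold change went from -1.49 ± 0.18 at Heat08hr to -2.41 ± 0.15 (SE, adjusted p = 4.90e-06) at Recovery08hr and was -1.23 ± 0.11 (SE, adjusted p = 7.83e-06) at Recovery24hr, which became -0.93 with quantile normalization. Across the 4 comparisons the log2 fold changes of the large-subunit genes other than rpl20, rpl22 and rpl23 ran from -1.72 (rpl16 at Heat08hr) to 0.39 (rpl32 at Heat08hr).

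The gene rpl32 was the exception among them under heat. It had 10484 to 12500.5 (median 11374) in Control08hr and 10557, 17224 and 17994 at Heat08hr, so that 2 heat arrays lay above the control range and the groups overlapped, and the log2 fold change was 0.39 ± 0.17 (SE, adjusted p = 0.0949). At Heat24hr it was 0.01 ± 0.13 (SE, adjusted p = 0.943). At Recovery24hr rpl32 had 7233, 7331 and 7558 against 10834 to 17534 (median 14012) in Control24hr, without overlap, a log2 fold change of -0.89 ± 0.13 (SE, adjusted p = 0.000215). This gene was singled out after its values were seen.

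Signals of the other large-subunit genes are given where they were lowest. At Heat08hr rpl14 had 3702, 4113 and 4556 against 11246 to 15919 (median 13759) in Control08hr, a decrease of 3.24-fold, and rpl16 had 3572, 3809 and 6454 against 12850.3 to 16285 (median 14666), a decrease of 3.3-fold. For rpl36 the Heat08hr signals were 3949.9, 4650.4 and 5318 against 8446 to 15587 (median 10606), a 2.37-fold decrease. None of these groups overlapped with the control. At Recovery08hr rpl2 had 12277, 12978 and 13805 against 23148 to 27147 (median 24171), a 1.89-fold decrease, and rpl33 had 3676, 4371 and 4536 against 8986 to 10648 (median 9881), a 2.34-fold decrease. Again the groups did not overlap. While rpl33, which is dispensable in tobacco at normal temperature, changed by -0.36 ± 0.08 on the log2 scale at Heat08hr, it changed by -1.14 ± 0.11 at Heat24hr and had 1 of the 6 called differences between these times.

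Of the 10 genes for proteins of the small subunit, 8 were lower at each heat time (29.1% and 33.4% of all probe sets). At each heat time 3 fell at least 2-fold, near the 22.4% of all probe sets at Heat24hr (16.3% at Heat08hr). All 10 were lower at Recovery08hr (26.2%), 8 of them by at least 2-fold (17.1%), and 7 were lower at Recovery24hr (18.4%). The median log2 fold changes were -0.58 at Heat08hr, -0.90 at Heat24hr, -1.23 at Recovery08hr and -0.56 at Recovery24hr. The genes that were not called lower at Heat08hr were rps16 and rps18, and at Heat24hr rps15 and rps16. At Recovery08hr rps16 was 1.67-fold lower, and rps18 2.2-fold.

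Among the small-subunit genes, rps2 had 1300.3, 1561 and 1909 at Recovery08hr against 3662 to 4991 (median 4872) in Control08hr, a decrease of 2.97-fold. Its Recovery24hr signals of 2967, 3713 and 4134 overlapped with 3538 to 5324 (median 4502) in Control24hr. Both rps3 and rps19, which lie in the rpl23 unit, fell at least 2-fold at both heat times, rps3 by 2.15-fold at Heat08hr and 2.14-fold at Heat24hr, and rps19 by 2.51-fold and 2.81-fold. The Heat24hr signals of rps19 were 3971, 5779 and 6192 against 13112 to 16471 (median 14704) in Control24hr. By contrast, rps4, rps15 and rps18 reached 2-fold at Recovery08hr and not under heat. There rps4 had 8493, 8723 and 8738 against 19362 to 22738 (median 21611) in Control08hr, rps15 596, 609.7 and 784 against 956 to 1786 (median 1734), and rps18 1058, 1484 and 1665 against 2604 to 3394 (median 3066), each without overlap. The signals of rps16 were 382, 456 and 515 at Recovery08hr against 592 to 822 (median 784), the one comparison in which it was called.

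The product of rps12 takes part in decoding accuracy, and its transcript is joined in trans from pieces transcribed apart. Signals of rps12 were 9121 to 14450.5 (median 11227) in Control08hr, 6502, 7112 and 9709.7 at Heat08hr and 1588, 2317 and 2565 at Recovery08hr. At 3 h after the onset of light they were 9323 to 14158 (median 10984) in the control, 3177, 4090.3 and 6082 at Heat24hr and 5241, 5698 and 5799 at Recovery24hr. Heat08hr overlapped with its control, and the other treated groups lay below theirs. In log2 terms rps12 changed by -0.57 ± 0.20 (SE, adjusted p = 0.0394) at Heat08hr and -2.43 ± 0.21 (SE, adjusted p = 2.37e-05) at Recovery08hr, a 5.39-fold decrease and the largest of the 31 genes there. A second, dimmer probe set of rps12 gave -0.79 ± 0.29, -1.54 ± 0.26, -2.32 ± 0.27 and -1.21 ± 0.22 at Heat08hr, Heat24hr, Recovery08hr and Recovery24hr. At Heat08hr this second probe set did not pass the test (limma, adjusted p = 0.052).

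The brightest of the 31 genes by mean signal was rps7, whose product starts the assembly of the head of the small subunit in bacteria. It had 24914 to 33856 (median 30702) in Control08hr, 17105, 22414 and 23499.7 at Heat08hr and 7203, 8369 and 9694 at Recovery08hr. In Control24hr it had 23846 to 35966 (median 28151), at Heat24hr 14115, 14133 and 16373 and at Recovery24hr 13432, 14852 and 15398. None of the treated groups overlapped with the control. The decrease at Heat08hr was 1.43-fold (limma, adjusted p = 0.017) and that at Recovery08hr 3.55-fold (limma, adjusted p = 1.39e-05).

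At the other end, rps14, which is co-transcribed with the photosystem I genes psaA and psaB, was the dimmest of the ribosomal protein genes. Its signals were 101 to 144 (median 121) in Control08hr, 76.6, 84.4 and 89.7 at Heat08hr and 30, 45.2 and 51 at Recovery08hr. For the 24hr groups they were 65.5 to 132 (median 112) in the control, 52, 61.3 and 63.6 at Heat24hr and 40, 48.3 and 62 at Recovery24hr. The treated arrays of rps14 lay below all controls in each group, with the lowest values during recovery. During recovery the log2 fold change was -1.55 ± 0.19 (SE, adjusted p = 0.000169) at Recovery08hr and -1.11 ± 0.20 (SE, adjusted p = 0.00111) at Recovery24hr. Each rps14 signal lay below the median signal of its array. With a mean signal of 88.8, rps14 was not in the alternative that required a mean of at least 100. Without detection calls the true size of its decreases is unknown.

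The 8 remaining genes did not move as one. At Heat08hr 6 of them were lower (29.1% of all probe sets) and at Heat24hr 7 (33.4%). Those that fell at least 2-fold were ycf2 and ycf3 at Heat08hr, and ycf2, ycf3 and clpP at Heat24hr. Of all probe sets 16.3% and 22.4% fell that far, and counts among so few genes are not far from these shares. At Recovery08hr 7 were lower (26.2%), 5 by at least 2-fold (17.1%). At Recovery24hr 6 were lower (18.4%), with ycf4 and cemA at least 2-fold (7.36%).

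Both photosystem I assembly factors encoded in the plastid, ycf3 and ycf4, were lower in all 4 comparisons. Signals of ycf3 were 6067 to 7376 (median 6905) in Control08hr, 1598, 1969 and 2538 at Heat08hr and 2591, 2729 and 2749.9 at Recovery08hr. They were 6340.3 to 9385 (median 7671) in Control24hr, 2383, 2655 and 2899 at Heat24hr and 4968, 5276 and 5363 at Recovery24hr. No treated array of ycf3 reached the control range, and the log2 fold change was -1.75 ± 0.14 (SE, adjusted p = 1.63e-05) at Heat08hr and -0.59 ± 0.12 (SE, adjusted p = 0.00211) at Recovery24hr.

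The other assembly factor gene, ycf4, had 1722 to 3122 (median 2209) in Control08hr, 987, 1364 and 1836 at Heat08hr and 449.6, 559.6 and 684 at Recovery08hr. In the 24hr groups ycf4 had 1528 to 2775 (median 2157) in the control, 961, 1323 and 1564 under heat and 601, 856 and 928 during recovery. Heat arrays overlapped with the control at both times and recovery arrays did not. At Heat08hr the log2 fold change was -0.72 ± 0.23 (SE, adjusted p = 0.0323), and at Recovery08hr ycf4 was 4-fold lower (limma, adjusted p = 6.35e-05).

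Next to ycf4 lies cemA, a gene for an envelope protein that in Chlamydomonas serves the uptake of inorganic carbon. It had 6916 to 7472 (median 7219) in Control08hr, 3233, 3570.4 and 5253 at Heat08hr and 1904, 1941 and 2761 at Recovery08hr. Values of 5723 to 8446 (median 6403) were measured in Control24hr, 3063, 3264 and 4479 at Heat24hr and 2679, 2965 and 3797 at Recovery24hr. The groups did not overlap in any comparison with the control, and the decrease was 1.83-fold at Heat08hr, 3.32-fold at Recovery08hr and 2.18-fold at Recovery24hr (limma, adjusted p = 0.000141).

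The proteolytic subunit of the Clp protease encoded by clpP is the only plastid-encoded part of that complex. It had 12859 to 16548 (median 14314) in Control08hr, 8189.7, 9238 and 10065 at Heat08hr and 10288, 10298 and 11332 at Recovery08hr. At 3 h after light onset, clpP had 13137 to 18997 (median 15664) in the control, 5582, 5938 and 6291 at Heat24hr and 10966, 12494 and 12514 at Recovery24hr. Heat24hr thus had the lowest clpP signals of all groups. On the log2 scale clpP changed by -0.65 ± 0.11 (SE, adjusted p = 0.00103) at Heat08hr and -1.41 ± 0.10 (SE, adjusted p = 1.38e-07) at Heat24hr, and the difference between them was -0.76 ± 0.14 (SE, adjusted p = 0.000253) by limma's interaction test. The small decreases of clpP during recovery (-0.43 and -0.39) became 0.28 and 0.10, neither called, with quantile normalization.

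Maturase K, encoded by matK inside the intron of a transfer RNA gene, acts in the splicing of group II introns. Under heat its signals overlapped with the control range, with 10429 to 15002 (median 12869.9) in Control08hr and 11986, 12113 and 16009 at Heat08hr. In the 24hr groups matK had 13539.9 to 17019 (median 14380.3) in the control and 13942, 15061 and 16752 at Heat24hr. Its log2 fold change was 0.07 ± 0.14 and 0.04 ± 0.09 at Heat08hr and Heat24hr, with intervals of ±2 SE from -0.21 to 0.34 and from -0.14 to 0.21. During recovery matK had 6111, 6879 and 7233 at Recovery08hr and 9054, 9378 and 10044 at Recovery24hr, below all controls, and the log2 fold changes were -0.91 ± 0.13 (SE, adjusted p = 0.000345) and -0.64 ± 0.08 (SE, adjusted p = 0.000124).

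A related order was measured for ccsA, which encodes a membrane protein needed to attach heme to cytochrome c and f. It had 15068 to 17684 (median 16505) in Control08hr, 14100.5, 18986 and 19721 at Heat08hr and 5996, 6332 and 6492 at Recovery08hr. In Control24hr it had 15517 to 20490.0 (median 17167), at Heat24hr 11636, 11752 and 12079 and at Recovery24hr 9156, 11178 and 11960.2. Only Heat08hr overlapped with its control. The log2 fold change of ccsA was 0.09 ± 0.12 (SE, adjusted p = 0.598) at Heat08hr, -0.57 ± 0.09 (SE, adjusted p = 9.88e-05) at Heat24hr and -1.39 ± 0.09 (SE, adjusted p = 5.91e-06) at Recovery08hr.

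The 2 longest reading frames of the plastid, ycf1 and ycf2, encode proteins reported to act in protein import. Signals of ycf1 were 6972 to 7715 (median 7393) in Control08hr, 4876, 5279 and 5482 at Heat08hr and 2413, 2981 and 5069.6 at Recovery08hr. They were 6189.9 to 8324 (median 7111) in Control24hr, 4484, 4818 and 5006 at Heat24hr and 6184, 7365 and 7438 at Recovery24hr, so the last group overlapped with the control. One Recovery08hr array of ycf1 lay well above the other 2, and the log2 fold change was -1.15 ± 0.21 (SE, adjusted p = 0.00153).

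The gene ycf2 was dim, with 291 to 545 (median 354) in Control08hr, 73.3, 104 and 137 at Heat08hr and 98.4, 197 and 396 at Recovery08hr. Its 24hr signals were 201 to 524 (median 299.7) in the control, 76.7, 80.2 and 159.7 at Heat24hr and 126, 262 and 497 at Recovery24hr. Heat arrays lay below the control at both times, whereas recovery arrays spread from below the control range into it. Under heat ycf2 changed by -1.93 ± 0.28 (SE, adjusted p = 0.000448) at Heat08hr and -1.72 ± 0.32 (SE, adjusted p = 0.00048) at Heat24hr on the log2 scale, and at Recovery08hr the value was -0.97 ± 0.42 (SE, adjusted p = 0.083). Each Recovery08hr array of ycf2 lay below both Control08hr arrays with its own replicate number, and with the number as a replicate block the adjusted p by limma was 0.0105.

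Arrays with the same replicate number moved together for many of the 31 genes. Deviations from the mean of group and age over their 32 probe sets had a median correlation of 0.45 between arrays of the same number (108 pairs, from -0.34 to 0.81) and -0.14 between arrays of other numbers (216 pairs). For ycf2, rps15 and both rps12 probe sets the array numbered 1 was the highest in 9 of 9 sets of arrays of one group and age. For rpl20, ycf4 and rps7 it was the highest in 8 of 9. Each Heat08hr array of ycf4 and rps12 lay below the Control08hr arrays of its own number, although the groups as a whole overlapped. Compared in this way, all 3 treated arrays lay below their own controls for 26 of 32 probe sets at Heat08hr, 26 at Heat24hr, 30 at Recovery08hr and 23 at Recovery24hr. The share of all probe sets that pass this looser rule was not counted, so how unusual these counts are is not known.

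Position on the plastid genome was set beside these values, since neighbours are often co-transcribed. The rpl23 unit holds 9 of the 31 genes, from rpl23 through rpl2, rps19, rpl22, rps3, rpl16, rpl14 and rpl36 to rpoA. All 9 of them were lower at Heat08hr (29.1% of all probe sets), with log2 fold changes from -1.80 to -0.78, and 8 fell at least 2-fold (16.3%). All 9 were also lower at Heat24hr (33.4%), 7 of them at least 2-fold (22.4%). The same 9 were lower at Recovery08hr (26.2%), 5 of them at least 2-fold (17.1%). At Recovery24hr 7 were lower (18.4%), and rpl36 had 0.01 ± 0.18. In this unit rpl23 went lowest at Recovery08hr (-2.41), whereas rpl14 went lowest at Heat08hr (-1.70). In gene order rpl20, rps12 and clpP follow each other, but only a part of rps12 lies there and the rest lies in the inverted repeat. Which part of rps12 its probe set detects was not tested. The log2 fold changes of rpl20, rps12 and clpP were -2.15, -0.57 and -0.65 at Heat08hr but -1.38, -1.40 and -1.41 at Heat24hr. At Recovery08hr the values were -1.21, -2.43 and -0.43. The neighbours rpl33 and rps18 had -0.36 and 0.06 at Heat08hr, and -1.23 and -1.14 at Recovery08hr. Differences between genes of a unit were not tested, because different probe sets differ in their response.

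Whether a heat change differed between the 24hr and 08hr groups was tested as an interaction with clock time. By this test 6 of the 31 genes differed, where 35.9% of all probe sets did. No difference of the 31 reached 2-fold, where 18.8% of all probe sets did. The log2 fold change was less negative at Heat24hr for rpoC1 and rpl14 (differences of 0.65 and 0.60, a direction called for 17.5% of all probe sets) and more negative for rps12, rpl33, clpP and ccsA (-0.83, -0.78, -0.76 and -0.66, 18.4%). Duration of heat, plant age and clock time changed together, so they cannot be told apart. During recovery 21 genes differed, where 39.1% of all probe sets did, and for each of the 21 the log2 fold change was less negative at Recovery24hr, a direction in which 19.7% of all probe sets were called. Where 12.6% of all probe sets did so, the difference reached 2-fold for rps12 (1.41 ± 0.24, adjusted p = 0.000106), rps2 (1.28 ± 0.20), rpl23 (1.17 ± 0.18), ycf1 (1.09 ± 0.22) and rpl16 (1.08 ± 0.19). Without replicate 3 of Recovery08hr, 19 genes differed.

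Setting recovery directly against heat at the same clock time showed different genes on either side. At Recovery08hr 9 genes were lower than at Heat08hr (16.8% of all probe sets) and 6 of these at least 2-fold (12.1%), namely rps12, ccsA, rps7, ycf4, rps18 and rps14. One gene, rpl14, was higher than at Heat08hr (22.5% of all probe sets), by 0.71 ± 0.18 (SE, adjusted p = 0.0288), and 0 by limma reached 2-fold (16.4%). The largest decrease was that of rps12, with -1.86 ± 0.27 (SE, adjusted p = 0.00423), followed by ccsA with -1.47 ± 0.18 (SE, adjusted p = 0.00283). In 12 genes all Recovery08hr arrays lay below all Heat08hr arrays (24.3% of all probe sets), and in 4 they lay above (29.6%). Without replicate 1 of Heat08hr, 3 genes were lower by at least 2-fold and 1, rpl20, was higher. With each array centred on its median, 16 genes were lower at any fold (25% of all probe sets) and none higher (15.1%). At least 2-fold lower were 12 of the 16 (18.8% of all probe sets). With quantile normalization 7 genes were lower (19.3%) and 7 higher (18.3%).

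At Recovery24hr 12 genes were higher than at Heat24hr (24.4% of all probe sets) and 2 lower (17.9%). The rise reached 2-fold for rpl22 (1.68 ± 0.24, adjusted p = 0.00368), rpl20 (1.16 ± 0.36), rps19 (1.03 ± 0.21) and clpP (1.01 ± 0.14), where 18.8% of all probe sets rose 2-fold. None of the 31 was 2-fold lower (11.3%), and the genes that were lower at any fold were rpl32 (-0.90 ± 0.14, adjusted p = 0.00449) and matK (-0.68 ± 0.14, adjusted p = 0.0133). All Recovery24hr arrays lay above all Heat24hr arrays for 13 genes (31%) and below for 6 (24.5%). This comparison moved with scaling: the median over the 31 genes was 0.38 as deposited, 0.66 with quantile normalization and -0.10 with median centring, and that over all probe sets 0.09, -0.10 and -0.39. At any fold 15 genes were higher (19.9% of all probe sets) and 3 lower (23%) with quantile normalization. With centring 3 were higher (15.9%) and 10 lower, near the 30% of all probe sets. After centring 1 gene, rpl22, was at least 2-fold higher and 4 (matK, rpl32, rpoB and ycf4) at least 2-fold lower. Of all 22746 probe sets 2741 were then at least 2-fold higher, and 21.6% at least 2-fold lower. Leaving out replicate 2 of Heat24hr left 1 gene at least 2-fold higher, leaving out replicate 2 of Recovery24hr left 2, and leaving out replicate 1 of Heat24hr gave 7.

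**Figure D3:**
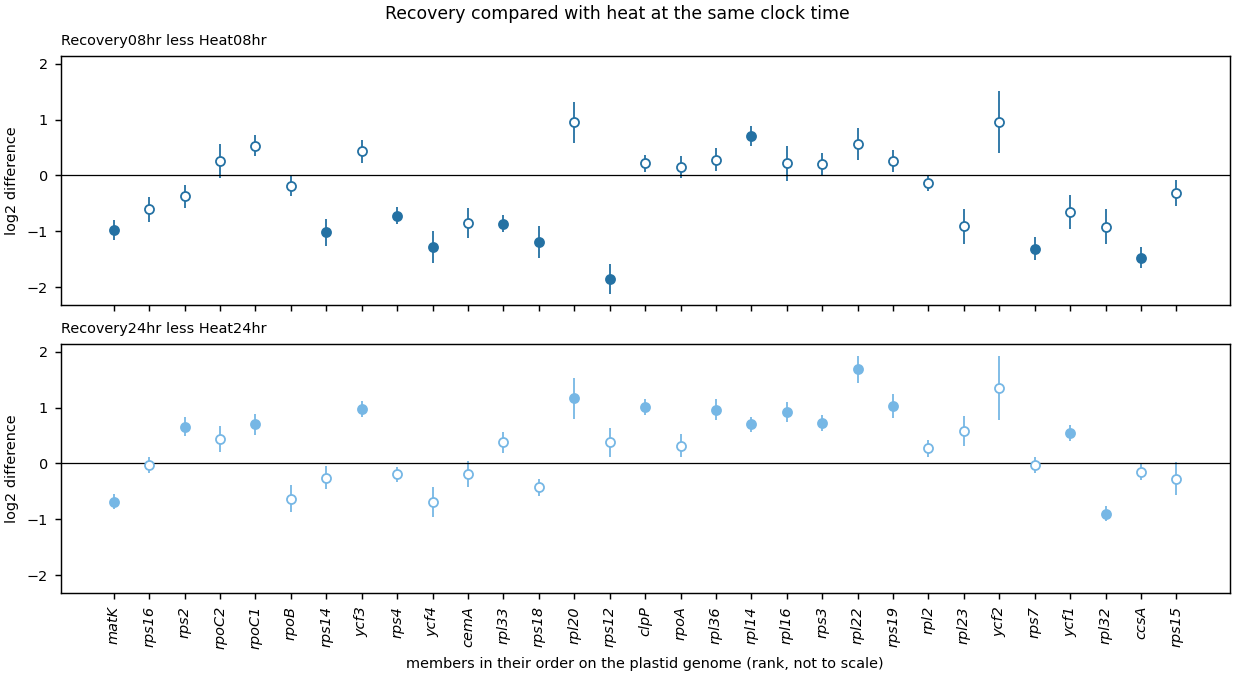
Log2 difference of each of the 31 genes between recovery and heat arrays harvested at the same clock time, in gene order by rank, with bars of ±1 SE. Filled points are at an adjusted p under 0.05 at any fold, 10 in the upper panel (9 lower, 1 higher) and 14 in the lower (12 higher, 2 lower).

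Few of the 31 genes differed between the control groups. No gene differed by 2-fold between Control08hr and Control24hr (4.31% of all probe sets were at least 2-fold lower and 3.94% higher). At any fold, 3 genes were lower in Control08hr by limma with Benjamini-Hochberg adjustment (15.8% of all probe sets) and 0 higher (17.6%), and at an unadjusted p under 0.05 the counts were 4 and 0. The 3 genes were rps18 (-0.32 ± 0.09, adjusted p = 0.0141), rpl32 (-0.26 ± 0.09, adjusted p = 0.0369) and matK (-0.23 ± 0.08, adjusted p = 0.029).

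The 45 plastid genes for photosynthesis, the NADH dehydrogenase-like complex and accD gave a comparison within the same genome. Their median log2 fold change was 0.02 at Heat08hr, -0.51 at Heat24hr, -0.99 at Recovery08hr and -0.93 at Recovery24hr, against -0.83, -0.95, -1.16 and -0.45 for the 31 genes. At Heat08hr 12 of the 45 were lower and 9 higher, close to the 29.1% and 19.5% of all probe sets. At Heat24hr 25 were lower and 6 higher (33.4% and 24.4%), and at Recovery08hr and Recovery24hr 40 and 41 were lower (26.2% and 18.4%). Limma called 0 of the 45 higher at the recovery times, also at an unadjusted p under 0.05. At least 2-fold decreases numbered 4, 9, 22 and 21, where 16.3%, 22.4%, 17.1% and 7.36% of all probe sets fell that far. With median centring the median of the 45 genes was 0.39 at Heat08hr and -0.09 at Heat24hr, and with quantile normalization -0.02 and -0.31. The difference between these 2 groups of genes was not tested.

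At Heat24hr the largest rise among the 45 was that of petN, a small subunit of the cytochrome b6f complex, with 2.45 ± 0.16 (SE, adjusted p = 4.84e-08), and the largest decrease that of ndhK, a subunit of the NADH dehydrogenase-like complex, with -2.26 ± 0.16 (SE, adjusted p = 1.24e-07). The brightest of those called, atpE of the ATP synthase, changed by -0.40 ± 0.12 (SE, adjusted p = 0.0152). For petN, which lies near rpoB, the signals were 234 to 342 (median 329) in Control24hr and 1455, 1477 and 1989 at Heat24hr, without overlap.

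**Figure D4:**
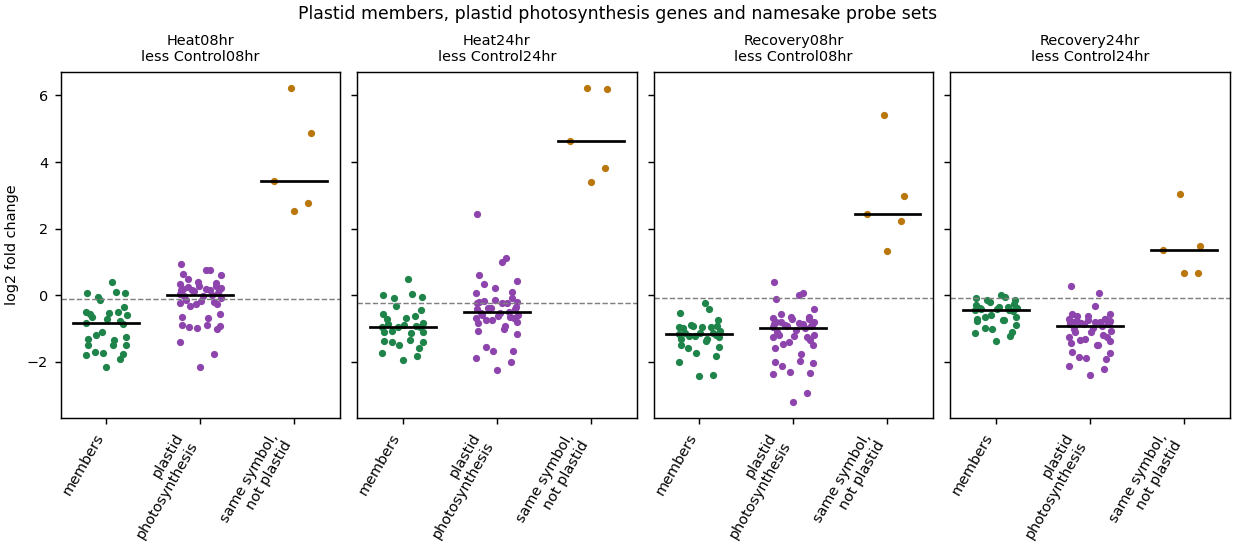
Log2 fold change against the control of the same clock time for the 31 genes, the 45 other plastid genes and 5 probe sets with the same symbols but gene IDs outside the plastid genome, 1 point per gene or probe set. Black lines are medians and the dashed line is the median of all probe sets. The medians of the 31 genes are -0.83, -0.95, -1.16 and -0.45 from left to right, and all 5 probe sets of the third set lie above 0 in every panel.

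Mitochondria encode ribosomal proteins of the same names, and 5 further probe sets carry such a symbol with gene IDs outside the plastid genome, 4 of them with an ID on the nuclear chromosome that holds a copy of mitochondrial DNA. They went the opposite way. All 5 rose at least 2-fold at Heat08hr, with log2 fold changes from 2.53 to 6.22, where 8.38% of all probe sets rose 2-fold. At Heat24hr they rose by 3.41 to 6.21 (13.9% of all probe sets) and at Recovery08hr by 1.33 to 5.41 (14%), and at Recovery24hr 4 were higher (18.1%), 3 of them at least 2-fold (6.2%). The upper values at Heat08hr, Heat24hr and Recovery08hr are those of the probe set named for rps12 and AT2G07675, whose Control08hr signals were only 4.83 to 55.4 (median 36.6), and with 16 added before log2 they became 5.42, 5.82 and 4.61. Without detection calls the controls may lie at background, which leaves the true size of such increases unknown. The probe set named for rps4 and AT2G07734 had 57.1 to 145 (median 117) in Control24hr, 6748, 7457 and 8001 at Heat24hr and 240.5, 251 and 289 at Recovery24hr. The plastid rps4, in comparison, had 18747 to 22983 (median 21277), 14206, 15594 and 16025 and 12665, 13708 and 13732 in those groups, a decrease of 1.37-fold at Heat24hr (limma, adjusted p = 0.00054). Which transcripts these 5 probe sets detect was not tested.

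Few nuclear-encoded partners of the 31 genes had a named probe set, so they are given one by one. Of the polymerase partners, 3 of 22 listed genes were named. RPOTp, the phage-type polymerase of plastids, had 411 to 468 (median 435) in Control08hr and 995, 1079 and 1183 at Heat08hr, without overlap, a log2 fold change of 1.31 ± 0.08 (SE, adjusted p = 3.76e-06). At Heat24hr it was 1.20 ± 0.12 (SE, adjusted p = 2.29e-06) and at Recovery24hr 0.76 ± 0.13 (SE, adjusted p = 0.000762). The rise of RPOTp was smaller at Recovery08hr, at 0.33 as deposited and 0.32 ± 0.10 with 16 added before log2 (SE, limma, adjusted p = 0.0182). With quantile normalization it was 0.19 there and not called. RPOTmp, which serves mitochondria and plastids, was dim in control plants, with 11.7 to 94.8 (median 32.2) in Control24hr and 426, 465.9 and 585 at Heat24hr, without overlap. Its log2 fold change of 3.76 ± 0.49 (SE, adjusted p = 2.67e-05) became 3.23 with 16 added before log2, and since no detection calls were used the size rests on control signals near the low end of the array. PTAC12, a protein associated with the plastid-encoded polymerase, had 1081 to 1472 (median 1262) in Control24hr, 353, 388 and 419 at Heat24hr and 1209, 1333 and 1477 at Recovery24hr. Its log2 fold change was -1.70 ± 0.10 (SE, adjusted p = 2.78e-08) at Heat24hr and 0.09 ± 0.11 (SE, adjusted p = 0.538) at Recovery24hr.

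Of the nuclear-encoded proteins of the plastid ribosome, RPL3, RPL29 and RPL35 of the large subunit are described. At Recovery08hr each fell at least 2-fold, RPL35 by 3.89-fold, RPL3 by 3.11-fold and RPL29 by 2.82-fold, and each remained lower with quantile normalization and with median centring. RPL35 had 4775 to 6173 (median 5302) in Control24hr, 2433, 2517 and 2671 at Heat24hr and 1720.0, 2795 and 3608 at Recovery24hr, and neither treated group overlapped with the control. Its log2 fold change was -1.08 ± 0.08 (SE, adjusted p = 2.76e-07) at Heat24hr and -1.05 ± 0.17 (SE, adjusted p = 0.000619) at Recovery24hr. RPL29 did not pass the test under heat (-0.21 ± 0.15, adjusted p = 0.298 at Heat08hr and -0.19 ± 0.11, adjusted p = 0.153 at Heat24hr).

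Named nuclear subunits of the Clp protease were 5 of 14. All 5 were lower at Recovery08hr (26.2% of all probe sets), 2 of them at least 2-fold (17.1%). The accessory subunit gene CLPT1 had 2113 to 2846 (median 2569) in Control24hr, 447, 456 and 516 at Heat24hr and 2179, 2256 and 3249 at Recovery24hr, so that its recovery arrays were back within or above the control range, and its log2 fold change at Heat24hr was -2.43 ± 0.10 (SE, adjusted p = 8.32e-10). The core subunit CLPP4 did not pass the test under heat (0.05 and 0.06). Of the partners of ycf3, ycf4 and ccsA, 3 of 5 were named, and CCS1 and CCDA, which act with ccsA in cytochrome assembly, and PYG7, a photosystem I assembly protein, each fell at least 2-fold at Recovery08hr (-1.76, -1.39 and -2.41). At Heat08hr PYG7 was lower (-0.96 ± 0.10, adjusted p = 7.67e-05), and CCS1 and CCDA had 0.28 ± 0.12 (SE, adjusted p = 0.0976) and 0.05 ± 0.08 (SE, adjusted p = 0.644). At Heat24hr PYG7 (-1.26 ± 0.10, adjusted p = 3.88e-07) and CCS1 (-0.83 ± 0.12, adjusted p = 5.67e-05) were lower, and CCDA had -0.04 ± 0.09. Nuclear genes for plastid RNA processing and decay, 10 listed, had no probe set named in the annotation used here. The leaf marker RCA was also lower at Recovery08hr (-0.85 ± 0.10), at Heat24hr (-0.87 ± 0.12) and at Recovery24hr (-0.88 ± 0.13). With quantile normalization it was 0.06 and not called at Recovery08hr, -0.49 and called at Heat24hr, and -0.10 and not called at Recovery24hr. Its part in the lower plastid signals was not tested.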

How the data were processed

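RNA of 27 plant samples was hybridised to Affymetrix ATH1 arrays. Per the labels and the study's methods, the authors made the deposited values as MAS5 signal intensities in GeneSpring version 12. The intensities are linear, 1 per probe set, for 22746 probe sets. The methods also name a baseline to the median of all samples, which these values do not show. The lowest signal, 1, is held by 3685 values. Signals were put on the log2 scale and tested with limma 3.58.1 (lmFit and eBayes) in R 4.3.3, with p-values adjusted by Benjamini-Hochberg over all probe sets, and only the groups of a comparison entered its fit. The script was tested on simulated data. Gene names came from the platform annotation of 14016 probe sets and the part of the study's probe set table at hand. Groups came from the labels. The number of arrays limits the precision, and the p-values measure the spread between arrays that the labels call biological replicates. 

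The 31 genes, the lists and the tests were chosen with earlier results of these data known. Values on every array were given for all genes outside the ribosome, and for the ribosomal protein genes with the largest changes and the brightest and dimmest ones. From each list up to 3 genes were named, and other genes were named after their values were seen. Alternatives were quantile normalization, centring on the array median, 16 added before log2, a mean signal of at least 100, all arrays in one fit, the replicate number as a block, no fold limit, age-matched controls, the dimmer probe set of rps12, the 25 genes on a probe set of 1 gene ID, and leaving out each array. The set of 25 genes and leaving out each control array were added after seeing the data. No sequence was used here, and of the plastid genome only the order of the genes. One listed nuclear gene is not reported here.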

Additional observations from a re-analysis of the deposited data

Results flagged for a closer look

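In 4 of 62 control groups of 6 or 9 arrays, 1 array of a gene stood far from the others, where chance gives about 1 in 20. The lowest Control08hr array of rps2 had a signal of 3662, the highest Control08hr array of rpoB 120.1, the lowest Control24hr array of rps14 65.5 and the lowest Control24hr array of rps18 2794.

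For 5 genes the recovery change differed by at least 2-fold between Recovery24hr and Recovery08hr in limma's interaction test, with a smaller decrease at the later time, where 12.6% of all probe sets were called in that direction. The differences on the log2 scale were 1.28 for rps2, 1.41 for rps12, 1.08 for rpl16, 1.17 for rpl23 and 1.09 for ycf1. The time since the end of heat, the plant age and the clock time of harvest differ between these groups and cannot be told apart.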

How the results depend on the processing

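All counts here are of the 31 genes past an adjusted p of 0.05 and 2-fold unless stated, and the cause of a change was not tested. With quantile normalization 13 fell at Recovery08hr (20 as deposited), 2 at Recovery24hr (5), and 1, rpoB, rose at Heat24hr (0). Recovery08hr against Heat08hr then had 1 higher (0), and Recovery24hr against Heat24hr had 8 higher (4) and 1 lower (0). Of all 22746 probe sets 3029 and 3300 were then at least 2-fold higher, and 14.9% at least 2-fold lower in Recovery24hr against Heat24hr. Centring on the array median left 9 fallen at Heat08hr (14) and 5 at Heat24hr (13). It gave 12 lower in Recovery08hr against Heat08hr (6), and 1 higher (4) and 4 lower (0) in Recovery24hr against Heat24hr. Of all probe sets 18.8% and 21.6% were then at least 2-fold lower in these comparisons. With no fold limit the counts lower were 25 at Heat08hr, 26 at Heat24hr, 20 at Recovery24hr and 3 between controls. In that setting Recovery08hr against Heat08hr had 1 higher, and Recovery24hr against Heat24hr 12 higher and 2 lower. Among the 25 genes on a probe set of 1 gene ID, 3 fell at Recovery24hr.

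Leaving out 1 array at a time gave 0 to 1 higher and 3 to 6 lower in Recovery08hr against Heat08hr, and 1 to 7 higher in Recovery24hr against Heat24hr. The same gave 14 to 16 fallen at Heat08hr, 12 to 16 at Heat24hr, 16 to 24 at Recovery08hr and 4 to 6 at Recovery24hr. Over every probe set whose signal averaged 100 or more, samples of the same replicate number did not deviate together (median r 0.03, from -0.15 to 0.26 over 108 pairs), whereas over the 32 probe sets of the 31 genes the median r was 0.45. The labels give no meaning to the number, so the fit without it was kept. With the number as a replicate block, 14, 13, 20 and 5 fell at the 4 treated groups, 5 were higher in Recovery24hr against Heat24hr, and 9 and 23 differed in the interactions of heat and recovery (6 and 21). For single genes it changed 6 results of 279 to past the threshold and 0 to short of it. Among genes lower at any fold, quantile normalization turned the sign of clpP (0.28) and rpl32 (0.04) at Recovery08hr and of clpP (0.10), rpl14 (0.01), rpl2 (0.28) and rps3 (0.12) at Recovery24hr. Centring turned that of rpl33 at Heat08hr (0.01) and rps18 at Heat24hr (0.09). Dim probe sets such as rpoB and ycf2 had the largest errors.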
